A study of Homo sapiens with 7 samples.

Results

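Many long intergenic RNAs (lincRNAs) are known only as an interval of the genome, without a settled direction of transcription. The array used here covers such an interval, where the direction was not taken as known, with a forward (F) probe that reads RNA of the plus strand and a reverse (R) probe that reads RNA of the minus strand. Of the 5291 lincRNA intervals named on the array, 2109 carried probes with both suffixes and lay outside the HOX gene clusters. These 2109 intervals, with 2321 forward and 2332 reverse probes (4653 of the 8263 lincRNA probes), are described here. They were chosen by the probe names alone. A further 5 intervals with both suffixes lay inside the HOX clusters and were left out, and 3170 intervals carried 1 suffix only.

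The samples came from ACHN, an established human renal cell carcinoma line. Cells carried the retroviral vector pBabe-hygro, either empty (EV, 4 samples) or with HOTAIR (HOTAIR, 3 samples), so that both groups shared the vector and its selection in hygromycin. The expression was driven by the viral vector and not by the gene's own promoter. The labels do not say whether the samples of a group were separate transductions or cultures, so the spread between them may be technical. The comparison asks which transcripts differ when ACHN cells carry the HOTAIR vector.

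LincRNAs are transcribed from sequence between protein-coding genes, are often capped, spliced and polyadenylated, and are usually present at far lower levels than mRNAs. HOTAIR is itself a lincRNA, read from the HOXC cluster in the direction opposite to the HOX genes, and is known as a partner of chromatin-modifying complexes. Transcription of both strands of 1 interval is common at active promoters, which can fire in both directions, and where antisense RNAs overlap.

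Each probe is a single strand of 60 bases. The forward and reverse probes of an interval need not lie at the same place. In 532 of the 2720 forward-reverse pairs the probes overlapped by at least 1 base, and all 532 were exact reverse complements over the shared bases. The pair at chr6:22144105-22144213 (hg19) is shown because its strands behaved differently across the arrays, as described further on. Capitals mark the 37 shared bases.
chr6:22144105-22144213_F: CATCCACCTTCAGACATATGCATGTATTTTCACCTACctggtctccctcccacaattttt
chr6:22144105-22144213_R: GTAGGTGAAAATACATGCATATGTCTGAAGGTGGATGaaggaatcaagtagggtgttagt

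The next pairs belong to the 5 intervals with the highest signal on both strands, by the dimmer strand. Capitals mark AATAAA, the hexamer that often precedes a poly(A) site. The reverse probe of chr1:91997737-92078987 has no placement in the annotation of the array.
chr5:72707719-72723794_F: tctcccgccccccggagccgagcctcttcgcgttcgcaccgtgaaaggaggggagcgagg
chr5:72707719-72723794_R: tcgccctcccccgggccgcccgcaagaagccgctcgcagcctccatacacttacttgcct
chr2:107293518-107358418_F: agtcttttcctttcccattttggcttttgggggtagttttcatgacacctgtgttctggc
chr2:107293518-107358418_R: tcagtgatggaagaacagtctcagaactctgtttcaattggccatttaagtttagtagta
chr1:91997737-92078987_F: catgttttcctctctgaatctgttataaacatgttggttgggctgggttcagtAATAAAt
chr1:91997737-92078987_R: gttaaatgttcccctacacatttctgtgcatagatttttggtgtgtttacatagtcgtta
chr2:20722919-20803669_F: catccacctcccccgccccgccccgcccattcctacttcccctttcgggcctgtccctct
chr2:20722919-20803669_R: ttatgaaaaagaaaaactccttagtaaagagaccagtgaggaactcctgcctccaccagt
chr9:111293604-111458604_F: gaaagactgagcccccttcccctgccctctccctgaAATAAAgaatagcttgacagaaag
chr9:111293604-111458604_R: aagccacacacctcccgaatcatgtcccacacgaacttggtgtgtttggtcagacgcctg

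The following 7 probes shared 20 or more bases, in the same sense, with a probe that the array assigns to a named gene or transcript elsewhere in the genome. Capitals mark the shared stretch. The other probe belonged, in this order, to RPL39, the transcript ENST00000447432, SSB, MRPL39, UQCRB, PPA1 and H3F3A.
chr1:26211738-26216813_F: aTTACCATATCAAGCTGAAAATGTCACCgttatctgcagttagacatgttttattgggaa
chr10:33330294-33409444_F: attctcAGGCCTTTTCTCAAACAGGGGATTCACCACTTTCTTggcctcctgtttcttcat
chrX:61944850-62040950_F: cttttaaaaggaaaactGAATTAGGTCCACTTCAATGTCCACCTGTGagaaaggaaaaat
chr5:66985594-66997719_R: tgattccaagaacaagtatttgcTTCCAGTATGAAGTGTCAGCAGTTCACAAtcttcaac
chrX:56758598-56844002_R: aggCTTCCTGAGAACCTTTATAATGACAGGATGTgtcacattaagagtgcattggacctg
chr3:17904246-18167346_R: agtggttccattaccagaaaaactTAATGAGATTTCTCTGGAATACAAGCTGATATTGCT
chr2:178145929-178214236_F: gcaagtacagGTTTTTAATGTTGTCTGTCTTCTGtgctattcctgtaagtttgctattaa

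The last 4 probes are shown because their values are given in full further on, as large differences between the groups or as detection in 1 group only. They have no capitals.
chr1:65519062-65531812_F: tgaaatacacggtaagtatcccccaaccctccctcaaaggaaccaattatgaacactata
chr5:149866432-149882132_R: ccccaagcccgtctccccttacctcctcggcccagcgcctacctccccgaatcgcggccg
chr7:22666693-22667114_F: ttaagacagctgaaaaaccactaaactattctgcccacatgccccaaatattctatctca
chr12:96953169-96992769_F: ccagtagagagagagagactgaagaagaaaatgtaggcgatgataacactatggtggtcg

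A probe was called detected where the scanner software rated its spot well above background. The 75th percentile of the signal lay between 523 and 649 on the 7 arrays, and no spot outside the controls was saturated. The HOTAIR probe was detected on 0 of 4 EV arrays and on 3 of 3 HOTAIR arrays. All 7 identity genes of the line, among them PAX8 and PAX2 of the renal lineage, were detected on every array, and 0 of 6 markers of other cell types were, with ALB, COL1A1 and HBB on none. The markers PTPRC, PECAM1 and CDH5 were seen on 3, 1 and 4 arrays at levels from -7.25 to -4.59, against 1.20 to 6.99 for the identity genes (log2, relative to the 75th percentile of the array). EV arrays lay in slide row 1 and HOTAIR arrays in row 2, so row and group cannot be told apart. EV 2, and less so HOTAIR 3, stood apart from the other arrays on the first principal component (64.8 and 21.2, against -24.7 to -7.31).

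The suffixes matched the strand. All 2320 forward probes with a placement read the plus strand and all 2273 placed reverse probes read the minus strand, each inside its interval. A further 60 probes, 59 of them reverse, had no placement. Interval lengths ran from 105 to 1038475 bases with a median of 13850, and 81.0% were multiples of 25 bases, against 20.9% of the intervals with 1 suffix. The intervals were not all separate: 625 of them overlapped another, and merging left 1740 stretches, with up to 9 intervals in 1 stretch.

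Most strands gave no detectable signal. A strand was counted as detected where at least 1 of its probes was well above background on all 7 arrays, and as not detected where no probe was on any array. Both strands were detected in 158 intervals (7.49%), exactly 1 strand with the other on no array in 453 (21.5%), and neither strand on any array in 767 (36.4%). Among the 453, the forward strand was the detected one in 239 and the reverse strand in 214. The remaining 731 intervals had a strand seen on some arrays only. At least 1 strand was detected in 801 intervals (38.0%).

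**Figure D1:**
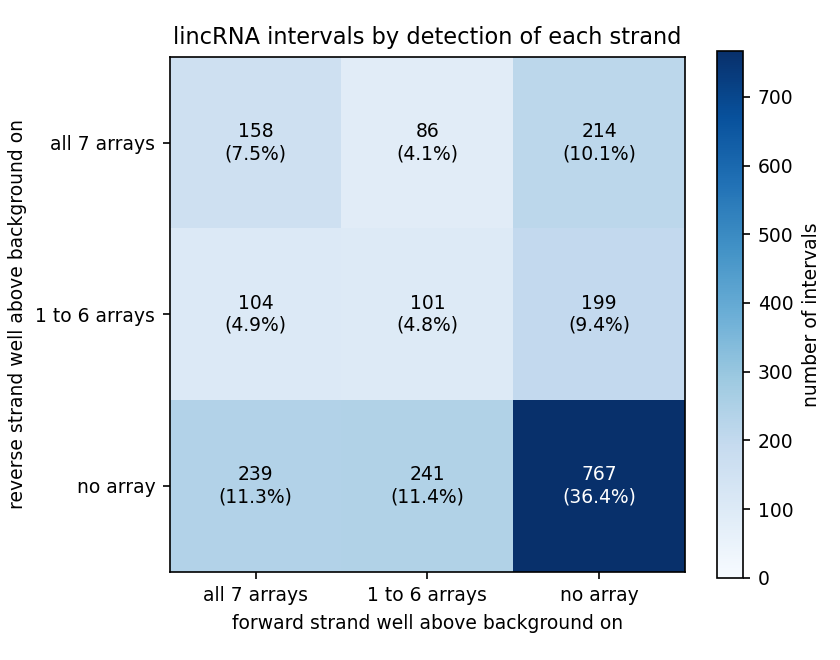
Number and share of the 2109 lincRNA intervals by detection of the forward strand (columns) and of the reverse strand (rows); darker cells hold more intervals. The largest cell holds the 767 intervals with neither strand on any array, while 158 had both strands on all 7 arrays.

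Detection of the strands went together to a limited degree. The reverse strand was on all 7 arrays in 31.5% of the intervals whose forward strand was, against 18.1% of those whose forward strand was on no array. These shares describe intervals that share arrays and, in part, sequence. Where the probes of a pair overlapped, both were on all 7 arrays in 4.32% of 532 pairs and neither on any in 54.3%. Where they did not overlap, the shares were 7.86% and 37.6% of 2125 pairs.

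The counts depended on the call. With the software's softer call (signal positive and significant against background), both strands were called on all 7 arrays in 461 intervals, exactly 1 in 233, and neither on any in 55. That call was made for 59.7% to 67.6% of the probes of these intervals on an array, and for 1.30% to 5.19% of the 308 negative control spots. The stricter call was made for 0 or 1 of those spots on EV arrays and for 5, 4 and 2 on HOTAIR arrays.

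Array by array, the share of the 4653 probes well above background was 29.8%, 28.2%, 30.4% and 28.4% on EV 1 to 4, and 31.3%, 28.0% and 33.5% on HOTAIR 1 to 3. HOTAIR 3 was the highest and HOTAIR 2 the lowest of all, so the groups overlapped. Forward probes (28.8% to 34.3%) and reverse probes (26.6% to 32.8%) covered similar ranges. The lincRNA probes of intervals with 1 suffix gave 27.9% to 32.1%, and all probes outside the lincRNA names 53.7% to 56.8%. Detection on all 7 arrays was 22.5% for probes of both-strand intervals, 22.9% for probes of 1-suffix intervals and 50.7% for all other probes. In bulk RNA, fewer cells that carry a transcript and less of it per cell cannot be told apart.

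**Figure D2:**
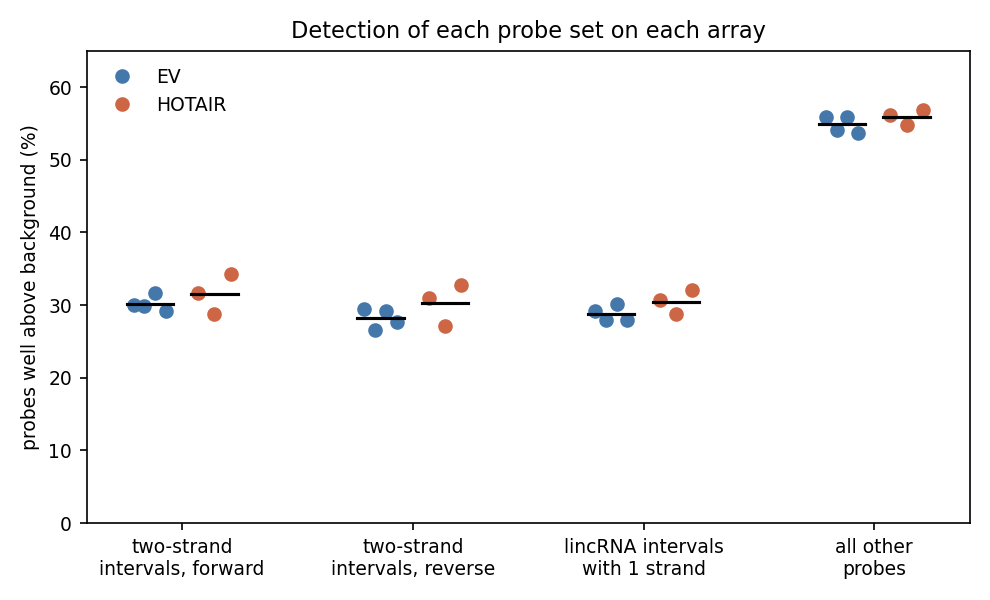
Share of probes well above background on each array (points; vertical axis in percent) for EV (4 arrays) and HOTAIR (3 arrays), with black lines at the group means. Forward and reverse probes of the both-strand intervals sit between 26.6% and 34.3%, beside the 1-suffix lincRNA probes, and all other probes between 53.7% and 56.8%.

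The base composition of the probe moved with detection. Among probes with 35% G and C or less, 14.8% of 723 were on all 7 arrays. The share was 16.5% of 741 above 35% to 40%, 20.6% of 1699 above 40% to 45%, and 26.8% of 369 above 45% to 50%. It reached 30.04% of 1012 above 50% to 55%, and 57.8% of 109 over 55%. Probes outside the lincRNA names showed no such slope, with 49.8% in the lowest class, 47.6% above 50% to 55% and 55.6% in the highest. The median was 45% G and C for detected probes and 43.3% for probes on no array. AATAAA in the probe's own sense was in 3.44% of the probes on all 7 arrays and 3.17% of those on none, and its reverse complement in 2.49% and 3.88%. Across all probes outside the lincRNA names, 7.67% held AATAAA and 3.80% the reverse complement.

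The 7 probes that shared a stretch of 20 or more bases with a gene's probe elsewhere were all on all 7 arrays, as were the 7 probes they shared it with. The shared stretches ran from 24 to 36 bases. RPL39 and MRPL39 encode ribosomal proteins of the cytosol and the mitochondrion, UQCRB a subunit of respiratory complex III, SSB an RNA-binding protein, PPA1 a pyrophosphatase and H3F3A a histone. Signal at these 7 probes is uncertain, since RNA of the other locus could bind. A further 15 probes shared such a stretch with a probe placed in the same interval, and 10 of them were on all 7 arrays. Among these, 1 forward probe on chromosome 22 shared 24 bases with the array's probe of TUG1, a known lincRNA, and both were on all 7 arrays (chosen after its values were seen). RNA from loci with no probe on the array was not examined.

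Detection differed little with the position in the interval. Of the placed probes, 43.0% lay in the last 20% of the interval in the direction of their strand and 9.84% in the first 20%. The share on all 7 arrays was 24.6% in the first 20%, 23.0% in the last 20%, and between 19.1% and 22.6% in the bins of 20% between them. Across classes of the nearest gene probe the range of that share was wider on the same strand, and narrower on the opposite strand. Where the nearest gene probe within 50000 bases on the same strand was itself on all 7 arrays, 28.1% of 1329 probes were too. The share was 25.4% of 295 where that neighbour was on some arrays, 23.6% of 828 where it was on none and 18.3% of 2201 with no such neighbour. For neighbours on the opposite strand the shares were 23.3%, 21.9%, 24.2% and 21.4% in the same order. By chromosome, detection on all 7 arrays ran from 15.3% on chromosome 15 to 32.7% on chromosome 20.

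Several probes of 1 strand did not always give 1 answer. Of 363 strands with more than 1 probe, 86 had every probe on all 7 arrays and 120 had none on any. In 29, 1 probe was on all 7 arrays while another was on none. In 27 intervals a strand had 3 or more probes. The widest range among those belonged to the reverse strand of chr1:71141937-71239037, where 1 probe was seen on 1 EV and 1 HOTAIR array and the other two on none.

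The 5 intervals brightest on a single strand had the other strand on no array. They were the reverse strand of chrX:71327175-71339200, the forward strands of chrX:15690954-15751379, chr6:127681282-127704857 and chr2:178145929-178214236, and the reverse strand of chr8:142243843-142266943. The first gave 5.44, 5.58, 5.62 and 5.70 on EV 1 to 4 and 5.59, 5.67 and 5.50 on HOTAIR 1 to 3 (log2 level relative to the 75th percentile, as for all levels that follow). These values lay close together and the groups overlapped. Levels of different probes cannot be ranked, since each probe has its own binding strength. In chrX:15690954-15751379 the array also places a probe of CA5BP, a pseudogene of a carbonic anhydrase, on the same strand. In chr2:178145929-178214236 it places hCG_1817306 on the opposite one, and its forward probe is the one that shared 24 bases with H3F3A.

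Among the intervals brightest on both strands, the array places a probe that it names after another gene in 3 of 5 cases. Whether the named gene itself lies there, and whether its RNA binds the lincRNA probes, was not tested. In chr2:107293518-107358418 a probe assigned to EEF1A1, the translation elongation factor, lay on the reverse strand. In chr2:20722919-20803669 a probe of NDUFAF2, an assembly factor of respiratory complex I, also lay on the reverse strand. In chr9:111293604-111458604 a probe of RPL36, a ribosomal protein, lay on the forward strand. The other two lay near genes (distances run from the interval to the nearest probe of the gene), chr5:72707719-72723794 at 18642 bases from FOXD1, a forkhead transcription factor of the renal stroma, and chr1:91997737-92078987 at 6631 bases from CDC7, a kinase of DNA replication. The probes of all 5 genes were detected on all 7 arrays.

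Within chr5:72707719-72723794 both strands varied alike across the arrays. The forward probe gave 3.89, 3.08, 4.45 and 4.84 on EV 1 to 4 and 4.81, 4.66 and 5.07 on HOTAIR 1 to 3. The reverse probe gave 4.23, 3.65, 4.72 and 5.36, and then 5.52, 5.43 and 5.03. EV 2 was lowest on both strands, and the groups overlapped on both. The log2 differences, HOTAIR minus EV, were 0.78 (SE 0.39) and 0.84 (SE 0.38), with limma adjusted p = 0.926 and 0.878. The probe of FOXD1 had a log2 difference of -0.25 (limma adjusted p = 0.939). Both probes were rich in G and C, at 71.7% and 68.3%.

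Differences between HOTAIR and EV were tested with limma on 20419 probes of the whole array, those detected throughout EV, throughout HOTAIR or in both. Of the 4653 probes of both-strand intervals, 1229 entered the test. At an adjusted p under 0.05, 0 of them were called, against 0.167% of all probes tested (34 of 20419; 0.132% higher and 0.0343% lower in HOTAIR). The lowest adjusted p among them was 0.181. At an unadjusted p under 0.05 there were 77 (6.27%), against a background of 5.85%. The rank product method, which the study's methods name, called 7 of the 1229 (0.57%, against 0.416% of all probes tested). Of these, 2 were higher in HOTAIR (0.163%, against 0.255%) and 5 lower (0.407%, against 0.162%). Those higher were the forward probes of chr8:145986196-145991421 and chr6:36084247-36091829, and those lower the reverse probes of chr7:55526931-55538319 and chr6:86381806-86396056 and the forward probes of chr1:65519062-65531812, chr20:25213650-25221750 and chr1:101507712-101513862. The estimated proportion of false positives of the 7 ran from 0.0107 to 0.0491, and limma called none of them (adjusted p from 0.210 to 0.993). The groups overlapped for the probes of chr6:36084247-36091829, chr7:55526931-55538319, chr20:25213650-25221750 and chr1:101507712-101513862. At chr20:25213650-25221750, called lower, HOTAIR 3 (-0.36) was the highest of all 7 arrays.

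HOTAIR and EV arrays did not overlap for 54 of the 1229 probes with HOTAIR higher (4.39%, against 4.2% of all probes tested) and for 18 with HOTAIR lower (1.46%, against 3.5%). In either direction the shares were 5.86% and 7.7%. The share with HOTAIR higher is near the background and the share with HOTAIR lower is below it. The median log2 difference was 0.10 (quartiles -0.06 and 0.28) and 66.3% of the differences were above 0, against 52.8% of all probes tested. Medians were 0.10 for the 631 forward and 0.10 for the 598 reverse probes, 0.07 for the 956 tested probes of 1-suffix intervals and 0.01 for all other probes. The spread between arrays of a group differed too, with a median SD of 0.31 on the log2 scale against 0.29 for the probes of 1-suffix intervals and 0.21 for all other probes. At matched level the gap to all other probes was smaller but remained in every class. It was 0.36 against 0.32 at levels up to -4 and 0.30 against 0.26 from -4 to -2. Above that it was wider, with 0.29 against 0.21 from -2 to 0 and 0.25 against 0.17 above 0. The shift of the probes of both-strand intervals was 0.04 with normexp background correction and 0.02 after quantile normalization. The normexp setting added an offset of 50 before log2, which lowers differences of dim probes.

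Single arrays did not follow the group in this shift. Against the EV mean of each probe, the median of the 1229 probes was -0.09, -0.07, -0.02 and 0.21 on EV 1 to 4, and 0.14, 0.03 and 0.15 on HOTAIR 1 to 3. EV 4 lay above all 3 HOTAIR arrays. Without EV 4 the median log2 difference was 0.17, and without EV 1 it was 0.06.

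The shift moved with the base composition of the probes, and rose in the same direction in probes outside the lincRNA names, over a smaller range. The difference between the sets was not tested. For probes of both-strand intervals the median log2 difference was -0.03 (120 probes) at 35% G and C or less, 0.05 (141) above 35% to 40% and 0.10 (412) above 40% to 45%. It was 0.13 (127) above 45% to 50%, 0.14 (360) above 50% to 55% and 0.35 (69) over 55%. For all other probes it rose from -0.05 in the lowest class to 0.19 in the highest. In the class over 55%, the medians of the both-strand probes against the EV mean were -0.20, -0.39, 0.00 and 0.51 on EV 1 to 4, and 0.43, 0.19 and 0.26 on HOTAIR 1 to 3. EV 2 was the lowest and EV 4 the highest, so the groups overlapped here as well. With every array centred within the 6 classes, an alternative added after the data were seen, the median difference of the 1229 probes was 0.07 and 0 were called.

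**Figure D3:**
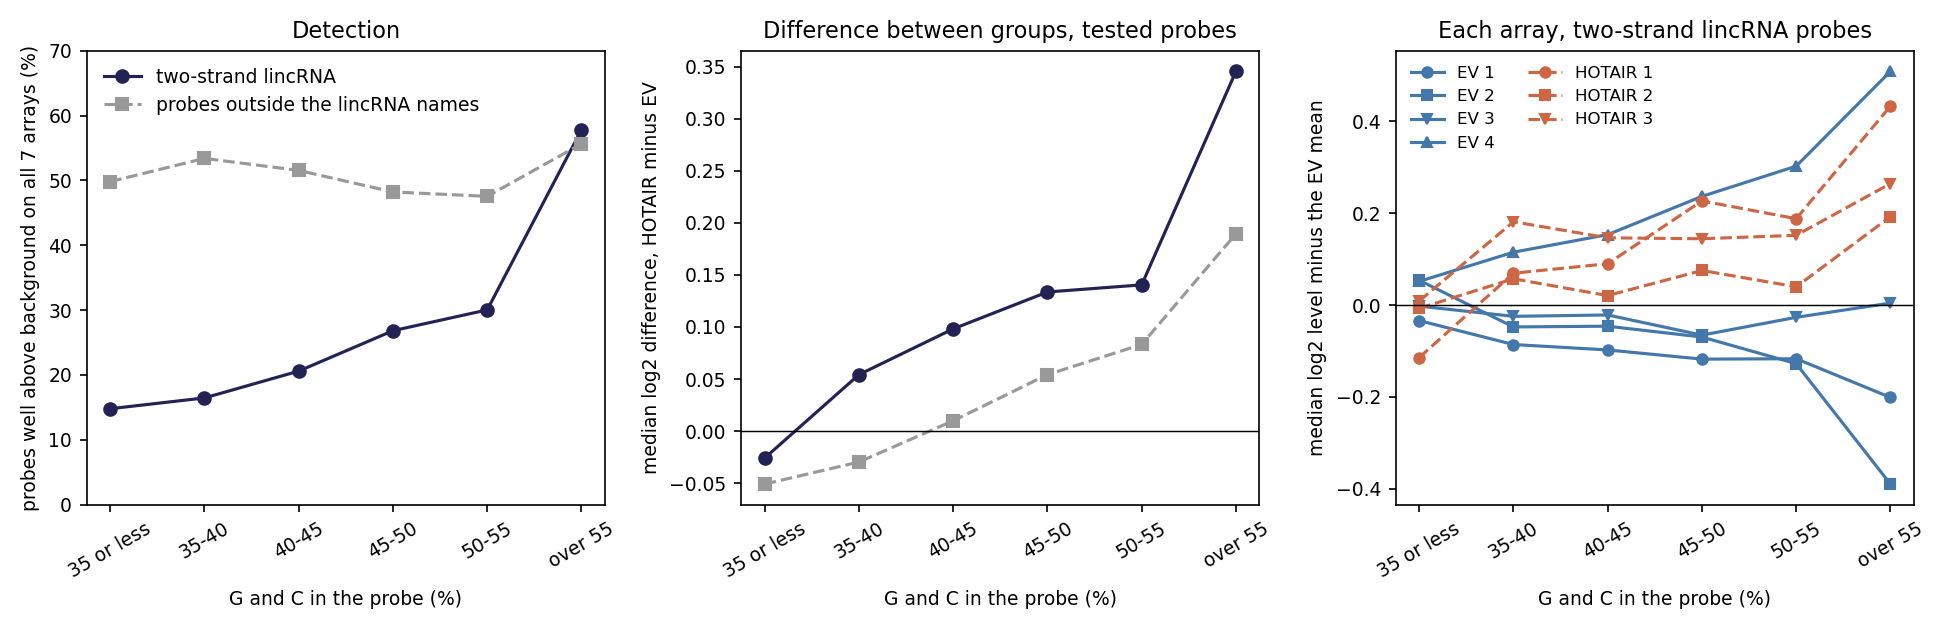
Left, share of probes on all 7 arrays (percent) by class of G and C content (horizontal axis, percent); middle, median log2 difference, HOTAIR minus EV, of the tested probes; right, median level of the tested both-strand lincRNA probes on each array minus the EV mean of each probe (log2). Detection rose from 14.8% to 57.8% for the both-strand probes (circles), and their median difference from -0.03 to 0.35, while EV 4 lay above and EV 2 below the other EV arrays in the highest class.

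The largest differences without overlap between the groups were picked for their size, and none passed the limma threshold, while 3 of the 10 are among the 7 rank product calls. With HOTAIR higher, they ranged from 1.13 to 1.65 on the log2 scale. The forward probe of chr8:145986196-145991421 gave -0.76, -2.42, -1.20 and -0.42 on EV 1 to 4 and 0.72, 0.20 and 0.44 on HOTAIR 1 to 3. All 3 HOTAIR arrays lay above every EV array, with EV 2 the lowest (log2 difference 1.65, SE 0.44, limma adjusted p = 0.448). It lay 7660 bases from ZNF34, a zinc finger gene on the opposite strand, with a log2 difference of -0.01. The nearest gene probe on the same strand, of ZNF517, was 42451 bases away. That probe was dim, detected on some arrays only and left out of the test, with means of -7.01 in EV and -5.71 in HOTAIR.

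At chr5:149866432-149882132 the reverse probe, with 73.3% G and C, gave 2.93, 1.64, 3.47 and 3.99 on EV 1 to 4 and 4.48, 3.99 and 4.54 on HOTAIR 1 to 3. EV 4 nearly met HOTAIR 2. The log2 difference was 1.33 (SE 0.51, limma adjusted p = 0.770), and 0.88 without EV 2. The ribosomal protein gene RPS14, 39914 bases away on the same strand, differed by 0.16.

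Single arrays set the size in 2 further cases. At chr4:109412651-109519913 the reverse probe gave -2.70, -5.84, -2.70 and -2.69 on EV 1 to 4 and -1.88, -2.40 and -2.59 on HOTAIR 1 to 3. Its difference of 1.19 (SE 0.78, limma adjusted p = 0.954) was 0.40 without EV 2, on which the probe was not detected. At chr13:45916075-45950225 the reverse probe gave -3.47, -3.96, -3.89 and -3.63, and then -1.26, -3.05 and -3.38. Its difference of 1.17 (SE 0.47, limma adjusted p = 0.798) was 0.52 without HOTAIR 1. The forward probe of that interval was also highest on HOTAIR 1, at -1.97, against -6.44 to -5.74 on the other arrays. TPT1, a translationally controlled tumour protein gene 2357 bases away on the same strand, differed by 0.10.

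With HOTAIR lower, the 5 largest differences ran from -0.97 to -0.58. The forward probe of chr1:65519062-65531812 gave -4.33, -3.68, -3.98 and -3.70 on EV 1 to 4 and -4.65, -4.83 and -5.18 on HOTAIR 1 to 3. It was well above background on 4 of 4 EV arrays and 1 of 3 HOTAIR arrays (log2 difference -0.97, SE 0.20, limma adjusted p = 0.210). The reverse probe of chr6:86381806-86396056 (-0.96) and the forward probe of chr4:11431452-11452602 (-0.66) showed the same detection, 4 of 4 and 1 of 3. The reverse probe of chrX:13269404-13285729 (-0.65) and the forward probe of chr1:35640663-35648813 (-0.58) were detected on all arrays. The last lies 428 bases from a probe of the splicing factor gene SFPQ on the opposite strand. Its difference was -0.33 without EV 2. With normexp background correction the 3 values for chr1:65519062-65531812, chr6:86381806-86396056 and chr4:11431452-11452602 were -0.33, -0.27 and -0.13. The offset added there lowers differences at such dim signals.

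**Figure D4:**
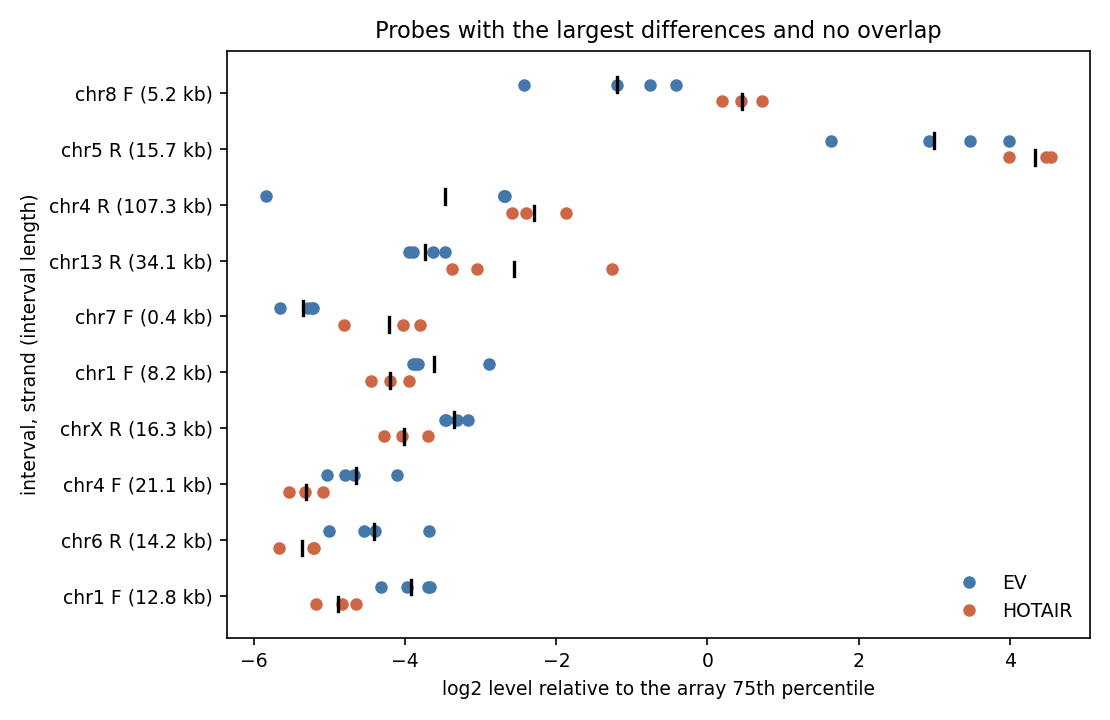
Log2 level relative to the 75th percentile of the array (horizontal axis) on each of the 4 EV and 3 HOTAIR arrays for the 5 largest differences in each direction without overlap; black bars are group means, and rows give chromosome, strand and interval length. One EV array (EV 2) lies far from its group at -5.84 on the chr4 R row, and HOTAIR 1 at -1.26 on the chr13 R row.

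Detection on every array of 1 group and none of the other was rare. It was seen with HOTAIR for 2 of the 4653 probes, against 0.0778% of all 42405 probes, and with EV for 0, against 0.0165%. The forward probe of chr7:22666693-22667114 gave -3.81, -4.03 and -4.81 on HOTAIR 1 to 3 and -5.65, -5.22, -5.29 and -5.23 on EV 1 to 4, without reaching detection there. The level in HOTAIR was an estimated 2.19-fold higher (limma adjusted p = 0.240). The forward probe of chr12:96953169-96992769 gave -4.64, -4.68 and -4.71, against -6.86, -5.30, -5.24 and -4.83. The log2 difference was 0.88 (limma adjusted p = 0.926). Both probes entered the test through HOTAIR alone. A second ratio took, on each EV array, the higher of the probe's own signal and the lowest signal well above background. It was 2.19 and 1.71 for the 2 probes, and is an estimate too, not a lower limit. At chr12:96953169-96992769 the lowest HOTAIR value, -4.71, was close to EV 4. With normexp background correction, whose added offset lowers differences of dim probes, the 2 differences were 0.31 and 0.18. Of all the probes of both-strand intervals, 2709 were seen on no array, 241 on 1 HOTAIR array alone and 142 on 1 EV array alone. For the 142 the share over all probes was not computed, so the counts of 241 and 142 are not compared.

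At 2 intervals the reverse strand was dark on all EV arrays and bright on some HOTAIR arrays, while the forward strand did not follow. Both were taken from the labels in the study's display of its upregulated genes, and so had been picked for being high in HOTAIR. Detection on no EV array and on 2 HOTAIR arrays was found for 30 of the 4653 probes (0.645%, against 0.299% of all probes), and on no EV array and 1 HOTAIR array for 241 (5.18%, against 3.46%). At chr6:22144105-22144213 the reverse probe gave -7.50, -1.90 and -2.98 on HOTAIR 1 to 3, well above background on 2 of 3, and -7.54 to -6.42 on EV. The forward probe, which covers 37 of the same bases, gave -1.66, -1.23 and -1.66 on HOTAIR and -1.95, -2.20, -1.50 and -1.09 on EV 1 to 4. It was detected on all 7 arrays and the groups overlapped (log2 difference 0.17, SE 0.27, limma adjusted p = 0.993). At chr2:208360030-208378555 the reverse probe was well above background on HOTAIR 1 alone (-0.55, against -6.08 and -5.48 on HOTAIR 2 and 3), and the forward probe on all 7 (log2 difference -0.10, SE 0.18). Both reverse probes were left out of the test because they were not on every array of a group.

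The chr6 interval lies within a run of overlapping intervals, and no other reverse probe there was detected on HOTAIR arrays alone. Apart from those described next, the other reverse probes were on no array. The forward probe of chr6:22183421-22200496 was on no EV array and on 1 HOTAIR array (-4.33 on HOTAIR 1). The reverse probe of the enclosing chr6:21666674-22221946 was on all 7 arrays, at -1.56, -1.53, -1.66 and -1.29 on EV 1 to 4 and -1.20, -1.09 and -1.16 on HOTAIR 1 to 3. All HOTAIR values lay above all EV values (log2 difference 0.36, SE 0.12, limma adjusted p = 0.658). That of chr6:22146877-22147124 was on all 7 arrays too, from -4.53 to -2.76 on EV and -3.50 to -2.44 on HOTAIR. These neighbours were chosen after their values were seen.

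Both strands entered the test in 201 intervals. There the brightest tested probe of each strand was compared within an array, so that the change of the balance (forward minus reverse, log2) is free of scaling between arrays. Its median change was -0.018, with quartiles of -0.23 and 0.22 and a range of -0.97 to 1.21. The 2 strands changed in the same direction in 112 intervals (55.7%), with both higher in HOTAIR in 89 and both lower in 23. Among all tested probes of both-strand intervals, 66.9% of the forward and 65.7% of the reverse differences were above 0. How often unrelated strands would then share a direction was not computed, so the 55.7% is not read as strands changing together. Across the 201 intervals the forward and reverse differences had Pearson r = 0.13 and Spearman rho = 0.09, a description over intervals that share the same arrays. The balance did not overlap between groups in 5 intervals (2.49%). The same share for other pairs of probes was not computed, so these 5 are not read as a result.

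**Figure D5:**
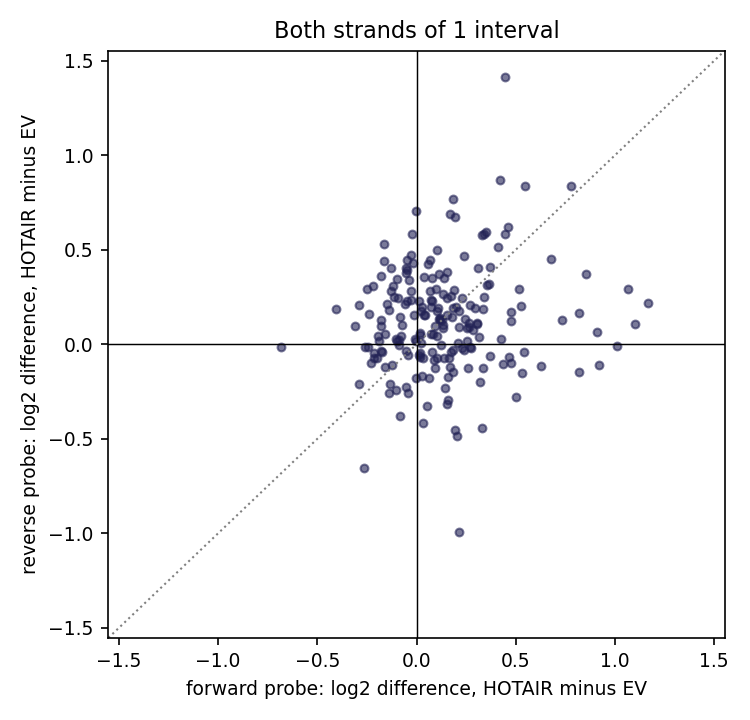
Log2 difference, HOTAIR minus EV, of the forward probe (horizontal axis) and the reverse probe (vertical axis) for the 201 intervals with both strands tested; the dotted line marks equal differences. The points form no narrow diagonal (r = 0.13), and 89 of them lie in the upper right part, where both strands were higher in HOTAIR. Most differences of either strand were above 0 among the tested probes.

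The 6 intervals with the largest changes of the balance, 3 in each direction, were picked for their size and are described without a test. At chr17:15385375-15392270 the balance was 1.22, 1.58, 0.82 and 0.31 on EV 1 to 4 and 4.43, 1.11 and 1.05 on HOTAIR 1 to 3. Its change of 1.21 was 0.09 without HOTAIR 1, on which the reverse probe was at -7.65 and not well above background. At chr16:83951024-83958049, next to MLYCD, a gene of malonyl-CoA breakdown, the reverse probe was at -7.08 on EV 2, and the change of -0.97 was 0.47 without it. At chr19:42774860-42784435 (-0.71) and chr1:180915452-180923811 (1.02) the probe that moved held 71.7% and 73.3% G and C, and the partner probes held 55% and 45%. The partner at chr1:180915452-180923811 had a log2 difference of -0.01. The change at chr19:42774860-42784435 was -0.38 without EV 2, and at chr1:180915452-180923811 it was 0.41 without EV 2 and HOTAIR 3. At chr22:46451236-46516536 the balance was -0.73, 0.18, -0.85 and -0.36 on EV 1 to 4 and -1.31, -0.95 and -1.14 on HOTAIR 1 to 3, with no overlap (change -0.70, and -0.28 with normexp background correction). At chrX:133675909-133683184, which holds a probe of MGC16121 on the reverse strand, the change was 1.03, the groups overlapped, and it was 0.61 without EV 2 and HOTAIR 3.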

How the data were processed

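Total RNA of 4 EV and 3 HOTAIR samples was labelled with Cy3 and hybridised to 1-colour Agilent arrays of 60-base probes, all on 1 slide. The deposited values are spot intensities from Feature Extraction 10.7.3.1, in which the authors' scanner software had already subtracted background, and the probe annotation is hg19. The software's flags for signal well above background, and for signal positive and significant, were taken as deposited. Here the processed intensity was set to log2, each array's 75th percentile over non-control spots was subtracted, outlier spots were dropped and spots of a probe averaged. Intensities are relative, so no count or depth exists, and the number of arrays limits the precision.

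Probes detected throughout EV, throughout HOTAIR or in both (20419 of 42405) were compared with limma 3.58.1 in R 4.3.3 (lmFit, then eBayes). P-values were adjusted over all of them by Benjamini-Hochberg, with a threshold of 0.05. The study's methods name a rank product, which was run as an alternative, and a Mann-Whitney U test, which with 3 against 4 arrays cannot pass 0.05 and was not run. The 2109 intervals and all lists were chosen with earlier results of these data known. Named intervals are the 5 largest differences in each direction without overlap between groups, the 5 brightest with 1 and with both strands detected, those detected in 1 group only, the 3 largest changes of the strand balance in each direction, 2 whose labels the study displayed, and the strand with the widest range among its 3 or more probes. The alternatives were other background corrections, normalizations, filters and detection calls, each array left out, and the replicate number as a block. The normexp background correction added an offset of 50 to each intensity before log2, which by itself lowers log2 differences of dim probes. The deviations of same-numbered samples from their group means had r of 0.41, -0.40 and -0.41. These 3 values cannot decide whether the numbers pair samples, and the main test used no pairing. P-values measure only the spread between these samples. The scripts were tested on simulated data.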

Additional observations from a re-analysis of the deposited data

Results flagged for a closer look

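Of 51 sets of 4 EV values screened (named probes, detection shares and the median shift), 6 held an array set apart from the other EV arrays by a gap large for the range of the group. Chance marks about 1 in 20 groups of values that were not selected. Many of these probes were picked for large differences on the same arrays, and the detection shares overlap. That rate therefore does not apply to the 6. The 3 HOTAIR arrays are too few to screen. EV 2 stood apart in 4 of the 6. It was high for the forward probe of chr1:35640663-35648813 (-2.89) and for a reverse probe of chr1:71141937-71239037 (-6.28). It was low for the reverse probes of chr4:109412651-109519913 (-5.84) and chr16:83951024-83958049 (-7.08). EV 1 was low for the forward probe of chr7:22666693-22667114 (-5.65), and EV 3 for the forward probe of chr16:83951024-83958049 (-5.09). EV 2 was also the array farthest from the others on the first principal component of the probes detected on all 7 arrays (64.8). The part of any 1 array in these values was tested only by leaving it out.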

How the results depend on the processing

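No probe of the both-strand intervals was called by limma under any alternative, and the rank product called 7. With the replicate block (EV 1 to 3 and HOTAIR 1 to 3) 0 of these probes were called. Their median log2 difference stayed above 0, from 0.02 (quantile normalization) to 0.17 (without EV 4), and from 0.06 to 0.17 with 1 array left out. The median change of the strand balance (-0.018) lay below or above 0 depending on the alternative. It ran from -0.034 (without EV 3) to 0.027 (without EV 2) with 1 array left out, and was -0.043 with quantile normalization. At chr22:46451236-46516536 the change was -0.28 with normexp background correction.

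Counts of intervals turned on the detection call. Both strands were detected in 461 intervals with the positive and significant call and in 449 with detection on at least 1 array, and in 158 to 175 with 1 array left out. Exactly 1 strand was detected in 233 with the softer call, in 773 with detection on at least 4 arrays, in 893 on at least 1 array, and in 461 to 499 with 1 array left out. Neither was detected in 55 with the softer call and in 781 to 823 with 1 array left out.

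Over all probes limma called 27 higher and 7 lower in HOTAIR, 10 and 2 with normexp background correction, 13 and 1 with no filter on dim probes, 16 and 6 with probes above background on all arrays, and 17 and 3 with trend and robust moderation. It called 0 and 0 under the block, 13 and 1 without EV 2 and HOTAIR 3, and 9 to 29 and 0 to 2 with 1 array left out. The rank product called 52 and 33. The causes were not tested. Signal close to background limits the dim probes. Their differences shrank with normexp, but its added offset alone lowers such differences, so the shrinkage decides nothing about background.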
